A study of Mus musculus with 8 samples.

Results

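Loss of the deacetylase SIRT1 was examined in secondary neurospheres grown from the hippocampus of adult mice, by setting the arrays labelled Sirt1 KO against those labelled WT. The comparison took its members from the sample titles, 2 Sirt1 KO arrays and 2 WT arrays of the 8 arrays in the series, and set them against each other within replicate number. Each array measured the RNA of 1 sample in a single Cy3 colour on an Agilent mouse array. Both genotypes had the mixed strain label 129/ICR and came from animals of 7 to 9 weeks, and both were grown as secondary neurospheres for 6 days without added drug. Replicate 1 was female and replicate 2 male in both genotypes, so that pair 1 is the female pair and pair 2 the male pair. The other 4 arrays, from C57BL/6 males, were neurospheres cultured for 5 days and then given DMSO (2 arrays) or resveratrol (2 arrays) for 24 hours. They share no strain with the genotype arrays, and in the main fit they served only to widen the estimate of the spread. They also counted in the choice of the genes tested and of the probe for each gene. For all groups, primary neurospheres had been grown with bFGF, EGF, PDGFbb and heparin, then dissociated and seeded again with bFGF, EGF and heparin. The labels do not describe the Sirt1 allele, whether the WT animals were littermates, or how many animals went into a sample.

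SIRT1 is an NAD-dependent deacetylase that removes acetyl groups from histones and from many transcription factors and metabolic regulators, and in neural progenitors it has been studied as a repressor partner at Notch target genes. Neurospheres are floating clusters of neural stem and progenitor cells held in division by growth factors. When the growth factors are withdrawn their cells give rise to astrocytes, oligodendrocytes and neurons, and markers of these lineages appear at low levels in growing spheres as well.

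The values below are levels, given as the log2 of the background-corrected signal minus the 75th percentile of the same array, so that 0 is that percentile and a difference of 1 is 2-fold. A difference is Sirt1 KO minus WT. The 4 genotype arrays differed in strength: 68.6% of probes were well above background on WT 1, 69.1% on Sirt1 KO 1, 53.1% on WT 2 and 58.9% on Sirt1 KO 2. Pair 1 spanned 2 slides, while both arrays of pair 2 lay on slide 3, so the pair 2 difference is also the within-slide value. Pair 1 was scanned on day 1 and pair 2 on day 2. Sex, slide, scan day and signal strength cannot be told apart as sources of a gap between the pairs. With 2 arrays per genotype, their number limits the precision of every value. In the main fit, made within replicate number, a p-value rests on the gap between the 2 pair differences. That gap is pooled with the one in the treatment arm and with the variances of all genes. The labels do not say that the samples were separate cultures, so the spread behind a p-value may be technical.

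The Sirt1 transcript itself was detected on every array and did not separate the genotypes. Its brighter probe read 0.17 on WT 1, 0.42 on Sirt1 KO 1, 0.18 on WT 2 and -0.064 on Sirt1 KO 2, so that the KO array was the higher of pair 1 and the lower of pair 2. The mean difference was 0.004 (SE 0.16, adjusted p = 0.994), and its sign depended on the block and the scaling. It was -0.09 with slide as a block, -0.03 with centring on the median and 0.007 with quantile normalization. A second Sirt1 probe read -1.33 on WT 1, -1.01 on Sirt1 KO 1, -0.98 on WT 2 and -1.91 on Sirt1 KO 2. Neither the files nor the labels place these probes relative to the part of the gene that was deleted, so they do not check the genotype. Among the 20 measured genes nearest to Sirt1 on chromosome 10, 0 passed the test, 3 were higher and 4 lower in both pairs, and the median difference was 0.001. The nearest 8 were Herc4 (-0.004), Dnajc12 (0.045), Mypn (2.67 in pair 1 and -0.40 in pair 2), Lrrtm3 (-0.77), Pbld2 (0.51), Reep3 (0.006), Hnrnph3 (-0.12) and Jmjd1c (-0.051), as differences with adjusted p of 0.126 or more.

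The spheres carried the markers of neural stem cells in both genotypes. All 6 defining markers (Nes, Sox2, Prom1, Fabp7, Slc1a3 and Vim) were well above background on all 4 arrays, and Fabp7, the brain fatty acid binding protein of radial glia-like cells, read 7.88, 7.79, 8.87 and 8.56 on WT 1, Sirt1 KO 1, WT 2 and Sirt1 KO 2. Of the microglial markers, Aif1, Cx3cr1, Itgam and Tyrobp were well above background on 0 of the 4 arrays, while Csf1r was on all 4. Of the 4 defining endothelial markers, Pecam1, Cdh5 and Cldn5 were well above background on 0 arrays and Kdr on 3. Of the 4 pericyte, fibroblast and smooth muscle markers, Pdgfrb and Dcn reached that mark on 0 arrays, Col1a1 on 1 and Acta2 on 4. Of the 3 ependymal and choroid plexus markers, Ttr reached it on 0 arrays and Foxj1 and Folr1 on 4. Of the 3 blood markers, Hba-a1 and Alas2 reached it on 1 array each and Cd3e on 4. In what follows, fewer cells of a type and less RNA per cell cannot be told apart, since each array measured whole spheres.

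A small set of genes passed the test within replicate number, and most of them were higher in the KO. With replicate number as a block, 35 of 13306 genes were higher (0.263%) and 7 lower (0.0526%) at an adjusted p of 0.05 (limma, two-sided, Benjamini-Hochberg over all genes). This count rests on the block: without it 0 genes passed in either direction (0%), with 159 genes at an unadjusted p under 0.05 against 1791 with the block. It was also 0 with slide as the block (smallest adjusted p = 0.302), without the filter on dim probes (0.0669) and without the intensity trend of the variances (0.12). Centring on the median of each array gave 30 higher and 13 lower, and normexp on local backgrounds turned the balance, to 2063 higher and 3731 lower. The 42 genes differed by 0.70 to 2.72 in size, 35 of them were well above background on all 4 genotype arrays, and 13 had further kept probes, of which 12 of 15 moved the same way in both pairs. In 28 of the 35 higher genes both KO arrays lay above both WT arrays, as in 7.52% of all genes, and in 5 of the 7 lower genes both lay below, as in 7.42%. Pfkl was the 1 called gene on chromosome 10, which holds Sirt1 and 4.76% of the genes tested.

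**Figure D1:**
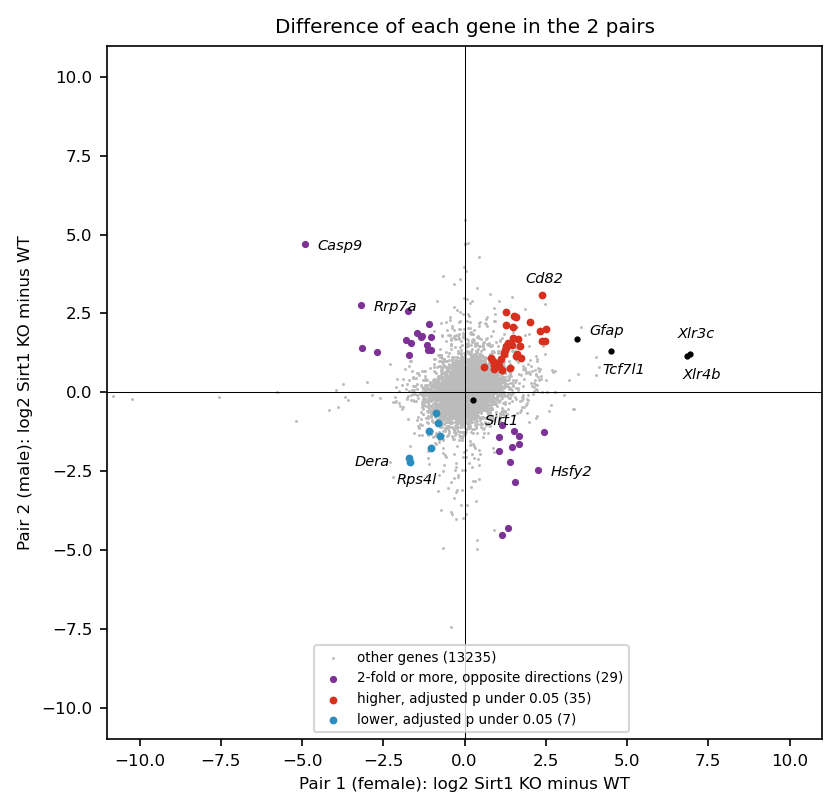
Difference of each gene, as log2 Sirt1 KO minus WT, in pair 1 (female, x axis) and pair 2 (male, y axis), 1 point per gene. The 35 higher and 7 lower genes of the fit with replicate number as a block lie close to the diagonal, the 29 purple genes differed at least 2-fold in opposite directions, and the points far out along an axis differed in 1 pair.

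By size alone, 75 genes were at least 2-fold higher in both pairs (0.564%) and 22 at least 2-fold lower (0.165%), while 29 differed at least 2-fold in opposite directions (0.218%). With normexp on local backgrounds the first counts became 12 higher and 240 lower. The called genes included 26 of the 75 and 4 of the 22. Genes at least 2-fold lower in both pairs that did not pass the test included the lipoxygenase Alox12, at -3.03 and -3.18 on the WT arrays and -5.32 and -5.38 on the KO arrays (adjusted p = 0.0817), and the platelet chemokine Pf4, at -3.27 and -4.81 in pair 1 and -2.21 and -3.48 in pair 2 (adjusted p = 0.0635). Alox12 was well above background on 2 of 2 WT arrays and on 1 of 2 KO arrays. Gpx6 (log2 difference -2.45) and Kcna4 (-1.61) were well above background on 2 of the 4 genotype arrays. Lamc3 and Ptchd4 were well above background on 1 WT array and on 0 KO arrays, so that no size is given for their differences. In each pair taken alone a 2-fold difference was common, in 571 genes in pair 1 and 570 in pair 2. Over all genes, 3095 were higher (23.3%) and 4381 lower (32.9%) in both pairs, with a median difference of -0.034, and the counts of gene lists below are read against these shares. The lists and the comparison were drawn up with earlier results of these data known.

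**Figure D2:**
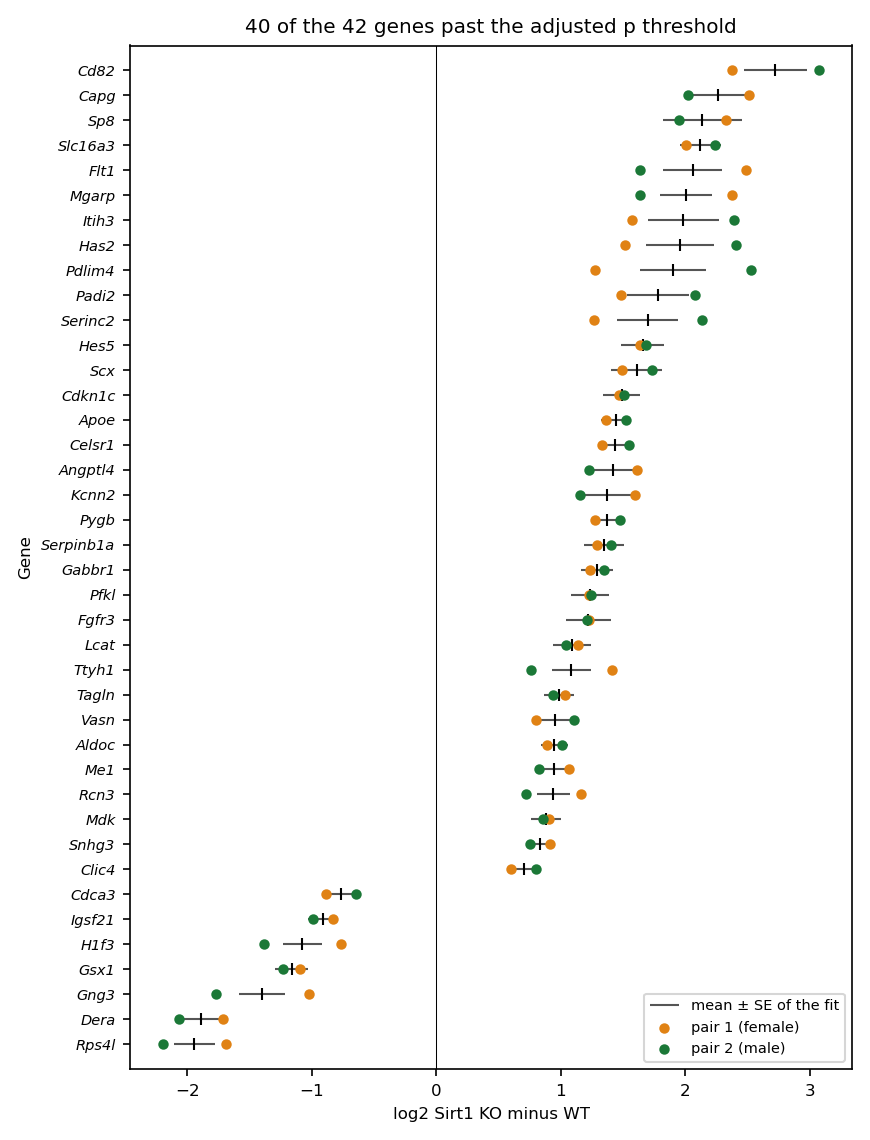
Differences of 40 of the 42 called genes, as log2 Sirt1 KO minus WT, with pair 1 in orange, pair 2 in green and the mean ± SE of the fit in black. Hes5, Cdkn1c, Pfkl and Fgfr3 had nearly the same difference in both pairs, while Pdlim4, Serinc2 and Has2 were further apart.

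Transcription factors of progenitor state and patterning were among the called genes, and they did not move in 1 direction. Hes5 encodes a basic helix-loop-helix repressor that Notch signalling switches on and that holds progenitors undifferentiated. It read 2.88 on WT 1 and 4.52 on Sirt1 KO 1, and 2.69 on WT 2 and 4.37 on Sirt1 KO 2. Both KO arrays thus lay far above both WT arrays, and the pairs gave almost the same step, 1.64 and 1.68. The difference was 3.16-fold (log2 1.66, SE 0.17, adjusted p = 0.0121). In the DMSO arrays, of another strain, Hes5 read 5.27 and 5.17, above all 4 genotype arrays.

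The 250 bases before the RefSeq start of Hes5 (GRCm38.p6, chr4:154960673-154960922, plus strand) hold the core TGGGAA, the sequence that the Notch effector RBPJ recognises, at -226 (on the opposite strand) and at -82, counted from the first base of the transcript and marked in capitals.
Hes5: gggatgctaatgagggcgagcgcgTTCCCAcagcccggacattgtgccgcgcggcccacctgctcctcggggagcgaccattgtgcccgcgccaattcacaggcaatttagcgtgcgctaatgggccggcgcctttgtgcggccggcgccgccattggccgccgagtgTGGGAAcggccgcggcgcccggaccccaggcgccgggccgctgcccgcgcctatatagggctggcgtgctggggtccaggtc
This core, on either strand, was found in 19.4% of the 36 promoter windows that RefSeq gives for 24 of the called higher genes and in 20.4% of the 13581 windows of all genes tested. The N-box CACNAG, which HES proteins bind, was in 47.2% and 35.2% of the same windows. A match shows that these letters stand in the window, and the arrays did not measure binding there.

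Other Notch pathway genes did not pass the test. Of 31 measured Notch receptors, ligands and modifiers, 0 passed the test, 12 were higher and 5 lower in both pairs, and the median was 0.11. The fringe glycosyltransferase Mfng differed by 1.59 (adjusted p = 0.0748), the receptors Notch2 by 0.45 and Notch3 by 0.75, the ligand Jag1 by -0.30, the ligand Dll3 by -0.21, and Neurl1a, which promotes ligand uptake, by -0.62. Mfng was higher in both pairs (0.93 and 2.25), but none of these values passed the adjusted test.

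Of 29 basic helix-loop-helix factors, 2 passed the test as higher, 14 were higher and 7 lower in both pairs, and the median was 0.11. Beside Hes5 this was Scx, known from tendon progenitors, which read -2.65 and -3.37 on the WT arrays and -1.16 and -1.64 on the KO arrays. Scx was 3.05-fold higher (log2 1.61, SE 0.20, adjusted p = 0.0288), and its difference fell to 0.16 with normexp on local backgrounds. The inhibitor Id1, which blocks proneural factors, fell just outside the threshold: it read -0.25 on WT 1, 0.95 on Sirt1 KO 1, 0.52 on WT 2 and 1.33 on Sirt1 KO 2, a difference of 1.004 (adjusted p = 0.0501). Id4, its relative in adult hippocampal stem cells, differed by 1.04 (adjusted p = 0.096). Helt, a HES-related repressor of midbrain progenitors, was not well above background on either WT array and was on both KO arrays, so that it was at least 3.03-fold higher (adjusted p = 0.0644). Olig2 and Olig1, which are abundant in these cells, differed by -0.22 and -0.20.

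Among 34 forebrain patterning factors, 1 was called in each direction, and the list as a whole had a median of -0.05, with 7 higher and 11 lower in both pairs; with slide as the block the median turned to 0.05. Sp8, a zinc finger factor of the dorsal lateral ganglionic eminence and of interneuron precursors, read -5.22 and -4.82 on the WT arrays, where it was well above background on 1 of 2, and -2.90 and -2.87 on the KO arrays. Its difference was 2.14 (SE 0.31, adjusted p = 0.0442), and the sign turned to -0.45 with normexp on local backgrounds. Gsx1, a homeodomain factor that moves ventral telencephalic progenitors towards differentiation, went the other way. It read 0.22 on WT 1 and -0.87 on Sirt1 KO 1, and 1.18 on WT 2 and -0.053 on Sirt1 KO 2, which is 2.24-fold lower (log2 -1.16, SE 0.13, adjusted p = 0.019). Lhx4 differed by -1.37 (adjusted p = 0.147), Nkx6-1 by -0.48 and Otx1 by 0.54. No Sox factor passed the test (0 of 13): Sox2 differed by 0.088, Sox9 by -0.44, Sox4 by 0.57 and Sox10 by 0.99. Of 10 measured Hox genes 0 were called.

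The cyclin-dependent kinase inhibitor Cdkn1c (p57), which keeps adult hippocampal stem cells out of the cell cycle, was among the most even differences. It read 1.24 on WT 1, 2.71 on Sirt1 KO 1, 1.39 on WT 2 and 2.90 on Sirt1 KO 2. Both KO arrays stood above both WT arrays, and Cdkn1c was 2.81-fold higher (log2 1.49, SE 0.15, adjusted p = 0.01). It was the 1 called gene among 33 cyclins and their inhibitors, of which 4 were higher and 17 lower in both pairs, with a median of -0.23. The inhibitor Cdkn2b differed by 0.88 (adjusted p = 0.0709). On the other side were Ccna2, the cyclin of S phase and mitotic entry (-0.57, adjusted p = 0.0786), the repressor E2f7 (-0.66), the inhibitor Cdkn2c (-0.53) and Ccne1, the cyclin of S phase entry (-0.46).

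Most genes of cell division were lower in both pairs, by small amounts. Of 29 mitosis genes, 27 were lower and 0 higher in both pairs, with a median of -0.43 (pair medians -0.49 and -0.36) against -0.034 over all genes, and of 37 DNA replication genes 26 were lower and 0 higher, with a median of -0.33 (pair medians -0.50 and -0.22). In both lists 0 genes passed the adjusted test. The median level of the mitosis list was 2.46 on WT 1, 1.94 on Sirt1 KO 1, 2.71 on WT 2 and 2.22 on Sirt1 KO 2, so that both KO arrays lay below both WT arrays. Nusap1, a spindle microtubule protein, differed by -0.53, the kinetochore motor Cenpe by -0.56 and the cytokinesis kinesin Kif20a by -0.53. Among replication genes, the primase subunit Prim1 differed by -0.51, the helicase subunit Mcm6 by -0.48 and the GINS subunits Gins1 and Gins3 by -0.54 and -0.59. Cdca3, a trigger of mitotic entry, was the called gene closest to this group: it read 3.41 and 2.53 in pair 1 and 4.54 and 3.90 in pair 2, 1.7-fold lower (adjusted p = 0.0442), with the WT and KO ranges overlapping because both arrays of pair 2 were brighter.

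Repair, histone and chromatin genes were examined beside those of division. Of 53 DNA repair genes, 26 were lower and 3 higher in both pairs (median -0.13), among them the glycosylase Neil3 (-0.67). Of 24 replication-dependent histones, 15 were lower and 5 higher (median -0.35), and this median turned to 0.04 with normexp on local backgrounds. The linker histone H1f3 was the called member, at 1.37 and 0.61 in pair 1 and 4.81 and 3.43 in pair 2 (difference -1.08, adjusted p = 0.0442). Its second, much dimmer probe went the opposite way, by 1.85 and 1.21 in the pairs, histone genes are near-identical copies of one another, and the H1f3 value is therefore uncertain. Within 36 Polycomb and DNA methylation genes, 13 were lower, a share close to the 32.9% of all genes, and 4 higher (median -0.11, which turned to 0.06 under the same normexp setting), and none was called.

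Dera, a gene of deoxynucleotide metabolism, was among the called lower genes. It encodes deoxyribose-phosphate aldolase, which breaks down the sugar of salvaged deoxynucleosides. It read -0.30 on WT 1 and -2.02 on Sirt1 KO 1, and 0.35 on WT 2 and -1.72 on Sirt1 KO 2. The 2 KO arrays lay well below the 2 WT arrays, and Dera was 3.71-fold lower (log2 -1.89, SE 0.18, adjusted p = 0.01). The C57BL/6 arrays stood on the KO side, at -2.30 and -1.73 with DMSO. Of the 44 genes of deoxynucleotide synthesis and salvage, Dera alone was called, and 25 were lower and 5 higher in both pairs (median -0.12, or 0.03 with normexp on local backgrounds). The ribonucleotide reductase subunit Rrm1 differed by -0.48 and thymidylate synthase Tyms by -0.44, with adjusted p of 0.0997 or more.

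Rps4l, a gene copy of the ribosomal protein RPS4, had the largest decrease among the called genes. It read 0.40 on WT 1, -1.29 on Sirt1 KO 1, 1.62 on WT 2 and -0.58 on Sirt1 KO 2, 3.85-fold lower (log2 -1.94, SE 0.16, adjusted p = 0.01). Since it resembles Rps4x, the transcript its probe reads is uncertain. Its DMSO arrays read 1.18 and 3.06. Rps4l, Dera, Cdca3 and the higher gene Capg lie on chromosome 6, which held 4 of the 42 called genes and 4.95% of the genes tested. Of 53 cytosolic ribosomal protein genes, 31 were lower and 2 higher in both pairs, while the median was -0.10 and turned to 0.004 with quantile normalization. Gng3, a neuronal G protein gamma subunit, was also lower. It read 1.63 and 2.03 on the WT arrays and 0.61 and 0.26 on the KO arrays (2.64-fold, log2 -1.40, SE 0.19, adjusted p = 0.0381), and a second Gng3 probe differed by -1.03 and -2.12 in the pairs. Of 36 heterotrimeric G protein and RGS genes it was the only one called. Igsf21, a synaptic adhesion protein of the immunoglobulin family, read 1.98 and 2.29 on the WT arrays and 1.15 and 1.30 on the KO arrays (log2 -0.91, adjusted p = 0.0381).

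Among 15 markers of neurons 0 were called, 3 were higher and 7 lower in both pairs, and the median was -0.04. The growth cone protein Gap43 differed by -0.72 (adjusted p = 0.0651), the immature neuron marker Dcx by -0.013 and -0.88 in the pairs, and the tubulin Tubb3 by -0.019.

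Among astrocyte genes 3 passed the test, all higher in the KO, with the lipid carrier Apoe in front. Apoe is secreted by astrocytes to move cholesterol between brain cells. It read 4.31 on WT 1, 5.67 on Sirt1 KO 1, 4.80 on WT 2 and 6.33 on Sirt1 KO 2, and both KO arrays were above both WT arrays. The difference was 2.72-fold (log2 1.44, SE 0.12, adjusted p = 0.01). Of 22 astrocyte markers 3 were called (Apoe, Aldoc and Fgfr3), 13 were higher and 3 lower in both pairs, and the median was 0.30 (pair medians 0.40 and 0.22). The summed signal of the 23 astrocyte markers on the array, in units of the 75th percentile, was 372 on WT 1, 517 on Sirt1 KO 1, 627 on WT 2 and 716 on Sirt1 KO 2, higher in the KO of each pair but with overlapping groups. Fgfr3, a growth factor receptor of radial glia and astrocytes, read 1.08 and 2.31 in pair 1 and -0.68 and 0.54 in pair 2. Its step was the same in both pairs (1.23 and 1.21, adjusted p = 0.0442) although the pairs started from different levels, and its 2 other probes differed by 1.09 and 1.29 and by 1.19 and 1.09.

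Of the 5 defining astrocyte markers, Aldoc, Aldh1l1 and Slc1a2 were well above background on all 4 arrays, while Gfap and Aqp4 were near the detection limit. Gfap, the glial filament protein, which hippocampal stem cells also carry, read -7.65, -4.19, -5.73 and -4.03 on WT 1, Sirt1 KO 1, WT 2 and Sirt1 KO 2. It was well above background on 1 KO array and on neither WT array, so that no size is given for its difference (adjusted p = 0.0604). The water channel Aqp4 read -4.84, -2.98, -5.84 and -3.21, well above background on 1 of 2 WT arrays and 2 of 2 KO arrays (difference 2.25, adjusted p = 0.0653). Both turned to lower under normexp on local backgrounds, Gfap by -1.18 and Aqp4 by -0.76. With 1 background per array both stayed higher, by 0.36 and 0.52. Aldh1l1, a folate enzyme of astrocytes, showed 0.19 and 1.07 in the pairs, and the glutamate transporter Slc1a2 by 0.52 and -0.79.

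Several called genes encode channels, a transmitter receptor subunit or related membrane proteins. Gabbr1, a subunit of the metabotropic GABA receptor, read -0.17 and 1.07 in pair 1 and -1.15 and 0.20 in pair 2 (2.45-fold, adjusted p = 0.01). Of its 2 other probes, one differed by 0.92 and 1.17 and a dim one by 0.37 and -1.51, so the probes disagree in pair 2. Kcnn2, a calcium-activated potassium channel, was 2.59-fold higher (1.59 and 1.15 in the pairs, adjusted p = 0.0487), the tweety family membrane protein Ttyh1 2.12-fold (1.41 and 0.76, adjusted p = 0.0442), and Clic4, an intracellular chloride channel protein, 1.62-fold (0.60 and 0.80, adjusted p = 0.0442). A second Clic4 probe did not repeat this, with -0.35 in pair 1 and 0.38 in pair 2. Among 24 connexins, aquaporins and astrocyte transporters, 15 were higher and 6 lower in both pairs (median 0.32, 2 called). Among 31 potassium channels, 10 were higher and 12 lower (median -0.03, 1 called). The 35 genes of glial glutamate and GABA handling had a median of 0.04, with 12 higher and 11 lower, and its pair medians were 0.18 and -0.11.

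Lcat, Angptl4 and Apoe, which encode secreted proteins of lipid transport, were higher. Of 30 genes of lipoprotein and cholesterol transport, 3 were called, all higher (Apoe, Lcat and Angptl4), while 12 were higher and 8 lower in both pairs and the median was 0.07. Lcat esterifies the cholesterol of Apoe-bearing particles. It read -0.73 on WT 1, 0.41 on Sirt1 KO 1, -1.87 on WT 2 and -0.83 on Sirt1 KO 2 (log2 1.09, SE 0.15, adjusted p = 0.0418), with equal steps from unequal levels. Angptl4, a secreted inhibitor of lipoprotein lipase and a PPAR target, read -3.50 and -2.64 on the WT arrays and -1.88 and -1.41 on the KO arrays (log2 1.42, adjusted p = 0.0442), and turned to -0.25 under normexp on local backgrounds. Apoc1 differed by 1.38 (adjusted p = 0.0565), the lipid exporter Abca1 by 0.85 (adjusted p = 0.0903) and lipoprotein lipase Lpl by -0.41. Of 32 PPAR target and fatty acid oxidation genes, 17 were higher and 6 lower in both pairs (median 0.14), with Cpt1a, the gate of mitochondrial fatty acid uptake, at 0.47 and the uncoupling protein Ucp2 at 0.66 and 2.34 in the pairs.

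Sugar metabolism gave the gene with the smallest p of all, the lactate exporter Slc16a3 (MCT4), which glycolytic cells and astrocytes use. It read 1.02 on WT 1, 3.02 on Sirt1 KO 1, -2.74 on WT 2 and -0.50 on Sirt1 KO 2. The step was alike in the pairs (2.00 and 2.24), but the arrays of replicate 1 stood far above those of replicate 2 in both genotypes, so that WT 1 lay above Sirt1 KO 2. The difference was 4.35-fold (log2 2.12, SE 0.16, adjusted p = 0.01). Of 32 glycolysis genes, 3 were called, all higher (Slc16a3, Aldoc and Pfkl), and 24 were higher and 1 lower in both pairs. The median was 0.44, with 0.67 in pair 1 and 0.18 in pair 2. Its median level was 2.11 on WT 1, 3.31 on Sirt1 KO 1, 1.03 on WT 2 and 1.23 on Sirt1 KO 2, so that the 2 WT arrays stood about as far apart as the arrays of pair 1.

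Pfkl, the liver-type phosphofructokinase, read 0.87 and 2.10 in pair 1 and -0.67 and 0.58 in pair 2 (2.35-fold, SE 0.16 on the log2 scale, adjusted p = 0.0288). Aldoc, the brain aldolase of astrocytes, read 4.83 and 5.13 on the WT arrays and 5.72 and 6.14 on the KO arrays (1.93-fold, SE 0.11, adjusted p = 0.0197), with no overlap. Tpi1 differed by 0.74 (adjusted p = 0.0555), Eno1 by 0.65 (adjusted p = 0.0831), and Eno2, the neuronal enolase, by 4.04 and 1.13 in the pairs. Pygb, the brain glycogen phosphorylase that releases glucose from glycogen, read -0.42 and 0.86 in pair 1 and -1.58 and -0.10 in pair 2 (2.59-fold, adjusted p = 0.01). Me1, the cytosolic malic enzyme that supplies NADPH, was 1.93-fold higher (1.07 and 0.83, adjusted p = 0.0418).

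Slc16a3, Pfkl and Aldoc are known targets of hypoxia-inducible factor, whose core element is ACGTG or GCGTG. Their RefSeq upstream windows of 250 bases (GRCm38.p6) are shown because these 3 genes were the called members of glycolysis, with the core in capitals on either strand. Slc16a3 (chr11:120948817-120949066, plus strand) holds it at -27 and -14, Pfkl (chr10:78009808-78010057, minus strand) at -99, and the first of 2 Aldoc windows (chr11:78322823-78323072, plus strand) at -50.
Slc16a3: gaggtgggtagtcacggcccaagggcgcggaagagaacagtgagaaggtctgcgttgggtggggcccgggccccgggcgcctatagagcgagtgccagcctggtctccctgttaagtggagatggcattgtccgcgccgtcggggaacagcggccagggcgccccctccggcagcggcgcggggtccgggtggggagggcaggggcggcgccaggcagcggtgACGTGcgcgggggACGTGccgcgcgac
Pfkl: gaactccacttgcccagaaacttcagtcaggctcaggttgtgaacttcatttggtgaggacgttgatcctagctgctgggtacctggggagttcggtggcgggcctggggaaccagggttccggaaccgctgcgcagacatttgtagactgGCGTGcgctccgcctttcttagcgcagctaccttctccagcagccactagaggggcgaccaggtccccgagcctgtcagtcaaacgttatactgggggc
Aldoc: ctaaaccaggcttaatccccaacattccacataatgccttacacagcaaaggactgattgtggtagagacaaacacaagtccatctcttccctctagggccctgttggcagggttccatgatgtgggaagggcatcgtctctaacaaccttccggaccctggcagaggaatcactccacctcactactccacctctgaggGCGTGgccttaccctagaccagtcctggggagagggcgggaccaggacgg
The core is common: it was in 58.3% of the 36 windows of called higher genes and in 53.8% of the windows of all genes tested. The E-box CACGTG was in 0% and 8.06%.

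Mgarp, a mitochondrial protein induced at low oxygen, and Flt1, a receptor for VEGF, were called as well. Mgarp read -1.91, 0.46, -4.71 and -3.07 on WT 1, Sirt1 KO 1, WT 2 and Sirt1 KO 2 (log2 2.01, SE 0.21, adjusted p = 0.0125), well above background on 1 WT array. Flt1 read -2.74 and -3.49 on the WT arrays and -0.26 and -1.85 on the KO arrays (log2 2.06, SE 0.24, adjusted p = 0.019). It is a member of the endothelial list, whose summed signal over 16 genes was 0.845 on WT 1, 1.68 on Sirt1 KO 1, 1.30 on WT 2 and 1.49 on Sirt1 KO 2, with Pecam1, Cdh5 and Cldn5 not well above background on any of these arrays and Kdr well above it on 3, at 0.20 and 0.41 in the pairs. The part of endothelial markers in the Flt1 result was not tested. Vegfa, the ligand, differed by 1.43 (adjusted p = 0.0951). Of 30 genes listed with the tricarboxylic acid cycle, the 1 called was Me1, whose enzyme is cytosolic (median 0.008). Of 52 oxidative phosphorylation subunits 0 were called, 4 were higher and 23 lower in both pairs (median -0.07, turning to 0.34 under normexp on local backgrounds).

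**Figure D3:**
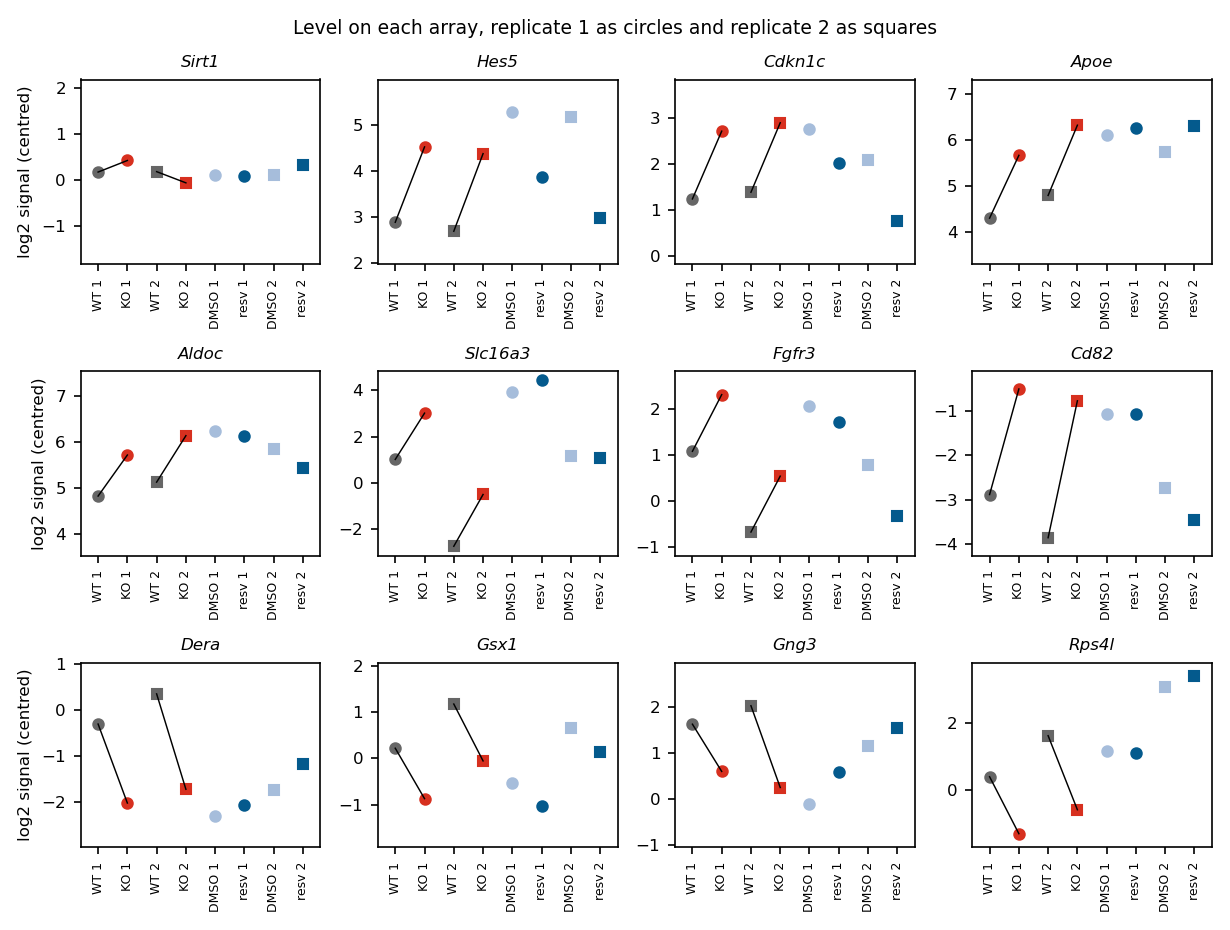
Level of 12 genes on all 8 arrays, as log2 signal minus the array's 75th percentile, with replicate 1 as circles and replicate 2 as squares and lines joining WT (grey) to Sirt1 KO (red) within a pair; DMSO and resveratrol (resv) arrays are of another strain. Sirt1 was nearly level, Hes5, Cdkn1c, Apoe and Aldoc rose alike in both pairs without overlap, and Slc16a3 rose alike from different starting levels.

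Markers of mature oligodendrocytes, the myelinating glia, were higher in most members. Of 14 measured, 1 was called, and 9 were higher and 2 lower in both pairs (median 0.51, pair medians 0.61 and 0.12, turning to -0.19 under normexp on local backgrounds). The defining marker Mog was not well above background on any genotype array, Mbp differed by 0.77 and -0.84, and Mag by 0.74 and -0.41, in opposite directions in the pairs. The summed signal of the 18 markers on the array was 10.2 on WT 1, 16.1 on Sirt1 KO 1, 11.3 on WT 2 and 14 on Sirt1 KO 2. Among 14 oligodendrocyte precursor markers 0 were called: Gpr17, a receptor of committed precursors, differed by 1.66 (adjusted p = 0.0501), Sox10 by 1.41 and 0.58, Pdgfra by 0.51 and -0.97, and Cspg4 by -0.67 and -0.41.

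Other called genes encode proteins of the cell surface, the matrix or the cytoskeleton. Cd82, a tetraspanin, had the largest difference of all called genes, at -2.88 and -0.51 in pair 1 and -3.85 and -0.77 in pair 2 (6.61-fold, log2 2.72, SE 0.25, adjusted p = 0.01), and was well above background on 1 of 2 WT arrays. Celsr1, a cadherin of planar cell polarity, read -0.22 and -0.94 on the WT arrays and 1.11 and 0.61 on the KO arrays (2.71-fold, adjusted p = 0.01). It was the only called gene of 26 cadherins and protocadherins, whose median was -0.02. The actin-capping protein Capg read -5.74 and -3.23 in pair 1 and -2.78 and -0.76 in pair 2 (log2 2.27, adjusted p = 0.01), and the hyaluronan synthase Has2 -2.69 and -1.17 in pair 1 and -5.85 and -3.44 in pair 2 (log2 1.96, adjusted p = 0.0422). Both were well above background on 1 of 2 WT arrays and turned to lower under normexp on local backgrounds, to -0.31 and -0.21.

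Tagln, an actin-binding protein of smooth muscle, read 0.58 and 0.89 on the WT arrays and 1.62 and 1.83 on the KO arrays (1.98-fold, adjusted p = 0.0234). The summed signal of the 18 pericyte, fibroblast and smooth muscle markers was 48.1 on WT 1, 36.5 on Sirt1 KO 1, 30.5 on WT 2 and 35.4 on Sirt1 KO 2, and Acta2, the smooth muscle actin, differed by -0.43 and 0.43. Pdlim4, an actin-associated scaffold, differed by 1.27 and 2.53 in the pairs (adjusted p = 0.0429). The serine protease inhibitor Serpinb1a was 2.54-fold higher (adjusted p = 0.0231), and Itih3, which carries hyaluronan, 3.96-fold (adjusted p = 0.0442), though Itih3 turned to -0.29 under normexp on local backgrounds. Vasn, a membrane protein that binds TGF-beta, was 1.93-fold higher (adjusted p = 0.0418), the heparin-binding growth factor Mdk 1.84-fold (adjusted p = 0.0418), and Rcn3, a calcium-binding protein of the endoplasmic reticulum, 1.92-fold (adjusted p = 0.0442).

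Padi2, the deiminase that converts arginine to citrulline in glial proteins, read -3.17 and -3.50 on the WT arrays and -1.69 and -1.41 on the KO arrays (3.44-fold, log2 1.78, SE 0.25, adjusted p = 0.0429), and the DMSO arrays stood with the WT arrays at -3.29 and -3.37. Serinc2, a member of the serine incorporator family, was 3.24-fold higher (1.26 and 2.13, adjusted p = 0.0442), and Snhg3, a host transcript of small nucleolar RNA, 1.78-fold (0.92 and 0.75, adjusted p = 0.0418). Serinc2 was well above background on 1 of 2 WT arrays. Under normexp on local backgrounds the difference fell to 0.007 for Padi2 and to 0.025 for Serinc2. With Padi2, Serinc2 and Snhg3, 40 of the 42 called genes have been named.

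Integrins and laminins held large differences that did not pass. Of 30, 15 were higher and 6 lower in both pairs (median 0.19, turning to -0.25 under normexp on local backgrounds). Itga8, an integrin of mesenchyme and neurons, read -0.65 and 0.024 on the WT arrays and -1.75 and -2.25 on the KO arrays (log2 -1.69, adjusted p = 0.0581), and Itga9 differed by -0.90 (adjusted p = 0.0599). Fibronectin, Fn1, differed by 1.44 in the other direction (adjusted p = 0.09). In TGF-beta and BMP signalling (35 genes, 11 higher and 10 lower, 0 called) Bmp4 differed by 2.19 and 1.15.

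Genes closely tied to SIRT1 were examined as lists. Of 34 genes that encode its deacetylation substrates, 0 were called, 5 were higher and 10 lower in both pairs, and the median was -0.06, which turned to 0.06 under normexp on local backgrounds. Their largest differences were those of the maintenance methyltransferase Dnmt1 (-0.49), Smad7 (0.58), the clock factor Arntl (0.45) and the fatty acid receptor Ppara (0.42), none of which passed. Myc differed by -0.32 and the heat shock factor Hsf1 by -0.34. Of 20 partners and regulators of SIRT1, 6 were higher and 6 lower in both pairs (median -0.03, of either sign across the scalings), with its inhibitor Ccar2 at -0.33 and the arginine methyltransferase Prmt1 at 0.71 (adjusted p = 0.0949). Of 25 histone deacetylases and acetyltransferases 5 were higher and 7 lower, and of 22 clock genes 12 were higher and 4 lower (median 0.32, turning to -0.11 under normexp on local backgrounds), led by Nr1d1 at 0.50 and 1.32. The RAS-ERK feedback genes, which read out growth factor signalling, had 8 of 17 lower and 2 higher (median -0.16), with Etv4 at -0.33, Spry1 at -0.32 and Dusp6 at -0.33. Of 44 lysosome and autophagy genes 23 were higher and 5 lower (median 0.10, or -0.005 with slide as the block).

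**Figure D4:**
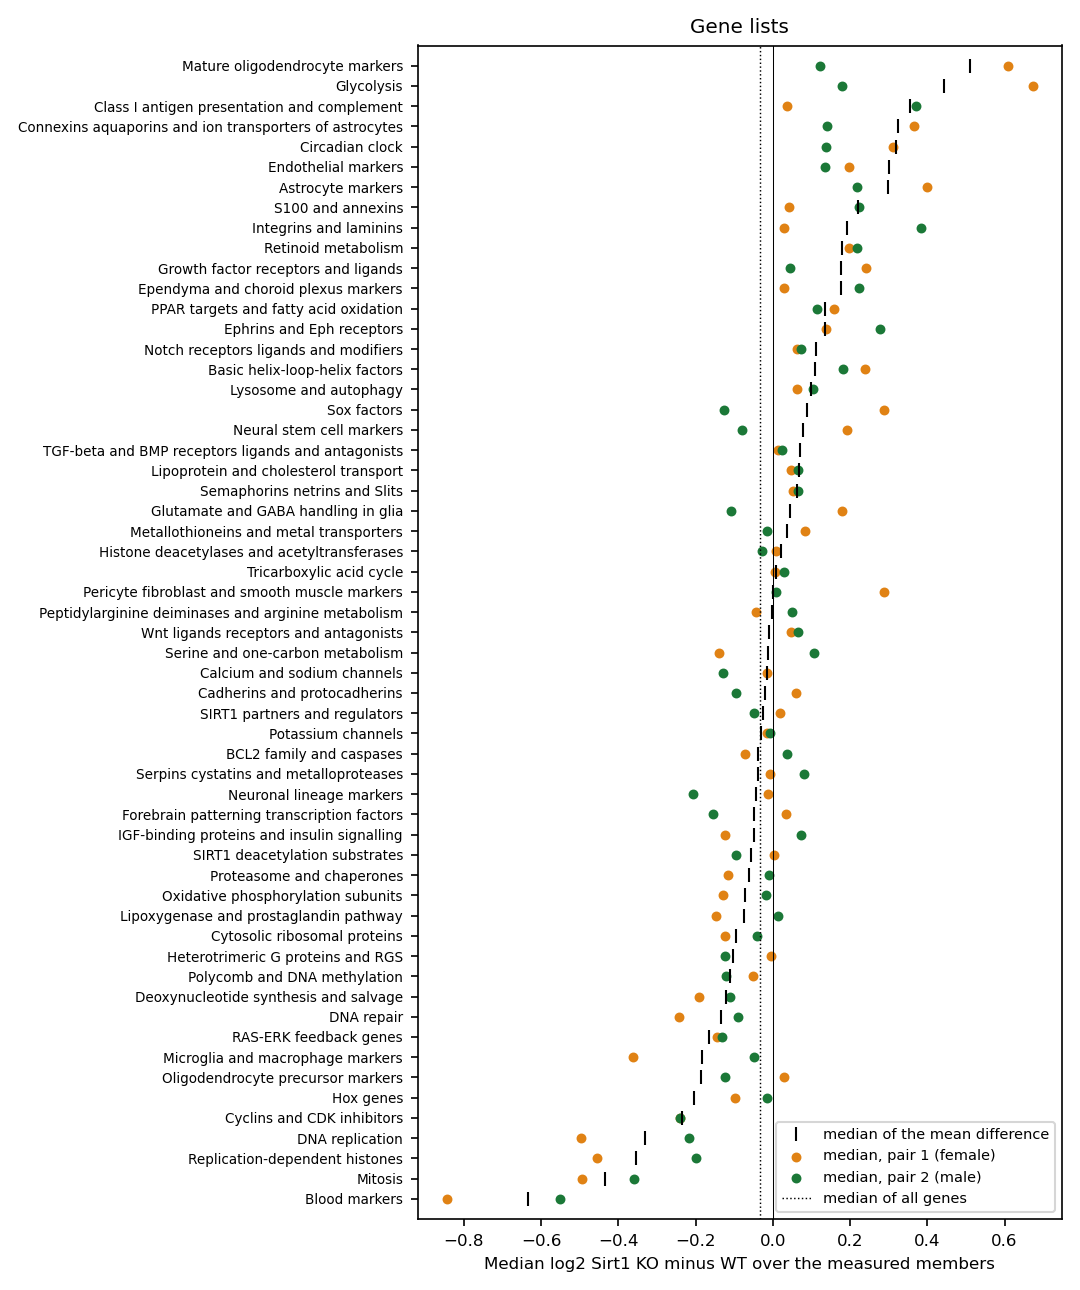
Median difference over the measured members of each gene list, as log2 Sirt1 KO minus WT, in pair 1 (orange), in pair 2 (green) and for the mean of the pairs (black mark); the dotted line is the median of all genes, -0.034. Mitosis and DNA replication lay below 0 and glycolysis and astrocyte markers above 0 in both pairs, and these 4 medians kept their sign under each setting tried, while many medians near 0 changed sign with the scaling and the lists of blood, microglial and endothelial markers rest on 4 to 7 measured members.

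At the detection limit, 52 genes were well above background on both KO arrays and on neither WT array (0.391%) and 11 on both WT arrays and on neither KO array (0.0827%). KO 2 had a higher share of detected probes than WT 2, 58.9% against 53.1%, and the part of that gap in these counts was not tested. For such genes the fold is a lower bound on the difference of the genotype means, set by the dimmest detected signal, and 1 pair can differ by less. Helt was given above, Jchain was at least 2.50-fold higher, Pawr, a pro-apoptotic repressor, at least 2.35-fold, the GTPase Gem at least 1.89-fold and the retinoic acid receptor Rara at least 1.48-fold. In the other direction, Vmn1r56 was at least 4.45-fold lower, Pnlip at least 2.89-fold and Nefh, the heavy neurofilament, at least 2.78-fold. Some of these rested mostly on pair 2: Jchain differed by 0.43 and 4.28 in the pairs, Vmn1r56 by -0.72 and -3.74 and Nefh by -0.83 and -3.12. Pnlip differed by -1.14 and -2.66, and Defb6, mostly in pair 1, by 3.22 and 0.40. Olfr519, Dnm3os, Ucma and Defb6 were higher by bounds of 1.24-fold to 1.90-fold, and T2, 1700016H13Rik, Ccl6, Mup4, Arhgap45, Kcnb2 and Gsc lower by bounds of 1.41-fold to 2.08-fold. None of these passed the adjusted test, and Olfr519, Dnm3os, Ucma, Defb6, Jchain, Pawr, Gem, Rara and Helt turned to lower under normexp on local backgrounds.

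The largest differences on the arrays were confined to 1 pair or were far larger in 1 pair than in the other. The X-linked genes Xlr3c and Xlr4b read -7.01 and -5.63 on WT 1 and -0.062 and 1.21 on Sirt1 KO 1, differences of 6.95 and 6.84 in the female pair, against 1.21 and 1.14 in the male pair. In the DMSO arrays, both male, Xlr3c read -7.87 on DMSO 1 and -2.64 on DMSO 2, and Xlr4b -5.29 and -1.09. These 2 genes thus differed between replicates of the same sex as well. Xlr3c and Xlr4b belong to a multigene family, so their values are uncertain. For Tcf7l1, a Wnt pathway repressor, the pairs gave 4.49 and 1.30. The mean of these was 2.89, but 1.69 when all kept probes of Tcf7l1 were averaged. Its WT 1 value of -3.79 lay far below the other 3 genotype arrays, at 0.70, 0.28 and 1.58, and below the DMSO arrays at 1.46 and 1.16. The 2 genes with the largest difference in pair 1, singled out after their values were seen, were Rlim and Gpbp1, at -10.83 and -10.22 in pair 1 and -0.10 and -0.21 in pair 2. On Sirt1 KO 1 both sat far below the other arrays (-7.95 and -7.95), and the other 2 probes of each gene showed no such drop, at 0.09 and -0.22 for Rlim and -0.27 and 0.10 for Gpbp1 in the same pair. In pair 2 the counterpart was Mrpl10, at 2.32 on WT 2 and -5.12 on Sirt1 KO 2.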

How the data were processed

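RNA of 8 neurosphere samples was labelled with Cy3 and hybridised to 1 array each. Agilent Feature Extraction read the signals; its version is 10.7 in the submitters' processing notes, while the file headers give 10.7.3.1. In the deposited scanner files each spot has an intensity that this software had corrected for background, per the file headers, and arrays were not yet scaled to each other. A table of log2 values, also deposited, whose normalization is not given in the sources used here, served as an alternative (lowest correlation with the scanner log2 values of the same array, 0.993). Of 45018 spots, 1639 were controls. The 41174 probes were averaged over their spots, and 102 with flagged spots were left out.

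The 75th percentile of each array was subtracted from its log2 intensities. A probe was kept if both arrays of any group had it well above background (26282, of which 19850 matched a RefSeq gene through their accession), and the probe with the highest mean stood for each of 13306 genes. Differences were fitted with limma 3.58.1 in R 4.3.3 over all 8 arrays, with group means, 1 replicate term per arm (the block) and an intensity trend of the variances, which left 2 residual degrees of freedom and 6.03 prior ones. P-values were two-sided, with Benjamini-Hochberg adjustment at 0.05. The numbers pair the genotype arrays by sex and by scan day, and their deviations from the group means correlated at 0.736. The script was tested on simulated data.

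The members, the 57 gene lists and the blocked design were chosen with earlier results of these data known, including that a fit without the block called no gene. Named genes are Sirt1 and its neighbours, every called gene, the largest differences at least 2-fold in both pairs or opposite in the pairs, genes above background in 1 genotype, and in each list the members with the smallest p in the direction of its median, with defining markers; further list members were named as contrasts after their values were seen. A few genes that these rules select are not reported here; they stayed in every fit and count. A fold for a gene not above background in 1 genotype is a bound on the difference of the genotype means. Such a fold is given only where both arrays of the other genotype were well above background. It was measured against the lowest signal of any probe well above background on each array. The arrays were annotated on an older genome build than that of the RefSeq table, so coordinates are given only for RefSeq promoter windows. Alternatives were other blocks, normalizations, background corrections, filters and probe rules, and leaving out each replicate. Normexp was run on median signals, since these files hold no mean signals.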

Additional observations from a re-analysis of the deposited data

Results flagged for a closer look

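The 29 genes that were at least 2-fold apart in both pairs, in opposite directions, were ranked by the smaller of their 2 differences, and the 6 at the top of that rank are given here. The difference between the pairs was not tested, since each pair holds 1 array per genotype. Casp9, the initiator caspase of the mitochondrial death pathway, read -0.29 on WT 1, -5.22 on Sirt1 KO 1, -4.29 on WT 2 and 0.43 on Sirt1 KO 2, so that the pair 1 difference minus the pair 2 difference was -9.64. WT 1 and Sirt1 KO 2 were near the DMSO arrays (0.99 and 1.36), and the other genotype arrays lay far below. Rrp7a, a ribosome biogenesis factor, had the same pattern at 1.36, -1.82, -0.57 and 2.20, a difference between pairs of -5.95, and was well above background on all 4 arrays. The remaining 4 genes were dimmer: the difference between pairs was 4.72 for Hsfy2, -4.31 for Cd300lg, -3.48 for Lao1 and 3.31 for Ugt2b34, and Hsfy2 and Lao1 were well above background on 0 of the 4 arrays. Of the 29 genes with opposite differences, 5 were well above background on all 4 arrays.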

How the results depend on the processing

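The count of called genes depended strongly on the fit. With replicate number as a block 35 genes were higher and 7 lower. Without the block, with slide as the block, without the filter on dim probes or without the intensity trend, 0 and 0 were called (limma; 159, 1236, 2032 and 1552 genes at an unadjusted p under 0.05). Smaller counts came from quantile normalization (15 and 3), the mean of all probes of a gene (15 and 3), normexp with 1 background per array (9 and 3) and the deposited values (21 and 4), and larger ones from the 4 genotype arrays alone (69 and 16), probes detected on all 4 of them (64 and 30) and normexp on local backgrounds (2063 and 3731). Centring on the median gave 30 and 13. Without 1 replicate, 377 to 423 genes were higher and 268 to 306 lower, but each genotype then had 1 array, whose spread was assumed to be that of the treatment arm. Of the 42 called genes, the difference kept its direction in 41 with the mean of probes, in 37 with normexp on local backgrounds, in the 35 measured on probes detected on all 4 arrays and in 42 under each other setting. At least 2-fold in both pairs were 12 higher and 240 lower genes with normexp on local backgrounds, 11 and 2 with 1 background per array, and 27 and 11 on probes detected on all 4 arrays; without the filter 75 were lower. With normexp on local backgrounds, 7183 genes had an unadjusted p under 0.05 (limma). Local backgrounds exceeded 100 units at 13 spots on WT 1 (up to 12125.5) and 10 on WT 2, and at 0 on both KO arrays. The part of these spots in the normexp result was not tested. Normexp on local backgrounds reversed Capg (-0.31), Has2 (-0.21), Itih3 (-0.29), Angptl4 (-0.25), Sp8 (-0.45), Olfr519 (-0.98), Helt (-0.70), Gfap (-1.18), Aqp4 (-0.76), Jchain (-0.71), Dnm3os (-1.17), Gem (-0.93), Ucma (-0.98), Defb6 (-1.19), Pawr (-0.94) and Rara (-0.98). H1f3 turned to 0.23 with the mean of probes, and Sirt1 to -0.089 with slide as the block, -0.028 with median centring and -0.15 with the mean of probes, and it ran from -0.243 to 0.251 without 1 replicate. The slide block moved the median of all genes from -0.034 to -0.111. The fit with slide as the block had no replicate term. Slide 1 held WT 1 and slide 2 Sirt1 KO 1, each beside C57BL/6 arrays of 1 replicate number. The gap between these slides thus rested also on the C57BL/6 replicates. For Slc16a3 this fit gave 3.365, outside its pair differences of 2.003 and 2.241. The cause of these changes was not tested. Signal over background limits the dim genes, most of all on WT 2.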
